A study of Rattus norvegicus with 12 samples.

Results

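In rat prefrontal cortex, 770 loci were analysed that a transcript assembler had numbered, that carry no Ensembl gene identifier, and that hold at least 2 assembled transcripts each. They were taken from 43206 genes and loci in the deposited table, of which 10323 were assembled loci and 1951 of those had several transcripts at any level. The 770 were those whose transcripts together reached a mean of at least 1 CPM over the 12 libraries, where CPM is the estimated count relative to the column sum of the library, on the usual CPM scale. Because the mean over all libraries chose them, their level is a description. A locus could also pass through the group in which it was high, so the counts and medians over the 770 loci below describe them and are no evidence of a direction. On either side of the threshold, XLOC_262224 (mean 0.997 CPM) and XLOC_003951 (mean 0.999 CPM) fell outside it, and XLOC_285704 and XLOC_022145 (mean 1.01 CPM each) fell inside.

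The RNA came from SD rats at postnatal day 28. By their labels, 4 libraries were normal (numbers 8, 10, 11 and 13), 4 were from rats with damage of the brain by hypoxia and ischemia, called HIBD model (numbers 2, 8, 16 and 18), and 4 were from an acupuncture group (numbers 5, 22, 35 and 55). The acupuncture labels give no word on damage, but by the series title the rats given acupuncture had it. The labels do not state that each number is 1 animal, so every p-value of level below measures the spread between these libraries. The p-values of the isoform usage test also pool the spread over the transcript rows of a locus, which are not separate measurements. No source used here gives how the damage was made, which points were needled or how often.

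A transcript assembler joins aligned reads into transcript models and gives a locus of its own number to models that match no gene in the annotation. Such loci can hold long non-coding RNAs, unannotated exons or transcript ends of known genes, or stretches of unspliced RNA. The several transcripts of 1 locus arise, in general, from alternative splicing, start sites or polyadenylation sites, all of which brain tissue is known to use widely. Where transcripts overlap, their reads have to be divided among them by a model, so the level of a whole locus is usually estimated more firmly than the share of each transcript. The files used here give these loci a number only, with no position, strand or sequence. No gene identifier of the table could be matched to a symbol, so the tissue could not be checked against cell type markers, and the function of a locus is not described.

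Totals of estimated counts were 714904584 to 1090316733 per library, and what 1 unit is worth in reads is unknown. Library 10 of the normal group stood apart from the other 3 normal libraries in the level of the assembled loci. The counts of loci that passed the adjusted tests against normal are given with and without it. Most other values, such as group means, spreads, unadjusted counts and counts of groups without overlap, are given only with it. In these tissue samples, fewer cells of a type and less RNA per cell cannot be told apart.

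Most of the 770 loci were low. Mean CPM had a median of 3.22 (quartiles 1.62 and 7.59). On the length-scaled FPKM scale the median of the loci was 1.53, against 6.75 for the 8473 Ensembl genes with several transcript rows at the same CPM threshold and 0.921 for the 638 assembled loci with 1 transcript. A mean of at least 10 CPM was reached by 156 loci and of at least 100 CPM by 14. The number of transcripts was 2 in 246 loci, 3 in 154, 4 to 9 in 266, and 10 or more in 104, for 4391 transcript rows in all. The ratio of estimated count to FPKM gives a relative transcript length. Set to 1 at the median of Ensembl genes, it had a median of 1.34 over the 770 loci (quartiles 0.75 and 2.41). Of the 770 loci, 734 were above 0 in all 12 libraries, 36 were listed at 0 in at least 1 library, and 0 were listed at 0 throughout any group.

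The loci together took a larger percentage of the estimated counts in the HIBD model and acupuncture libraries than in 3 of the 4 normal ones. They held 0.553%, 1.13%, 0.616% and 0.608% of the total in normal libraries 8, 10, 11 and 13. In HIBD model libraries 2, 8, 16 and 18 they held 1.03%, 1.46%, 1.66% and 1.33%. In acupuncture libraries 5, 22, 35 and 55 they held 1.63%, 1.65%, 1.12% and 0.793%. Normal library 10 lay above HIBD model library 2 and above acupuncture libraries 35 and 55, so the groups overlapped, and acupuncture library 55 was the lowest outside the normal group. Group means were 0.726% ± 0.268 (SD, n = 4) for normal, 1.37% ± 0.267 for HIBD model and 1.30% ± 0.417 for acupuncture. A single locus, XLOC_011099, made up 13.9% to 42.8% of the counts of the 770 loci in a library. Without it, the means were 0.549% ± 0.112, 0.979% ± 0.318 and 0.998% ± 0.235.

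The typical locus moved with this percentage. The deviation of each locus from its own 12-library mean, on the log2(CPM + 0.1) scale, had medians of -0.93, 0.03, -0.79 and -0.94 in normal libraries 8, 10, 11 and 13. The medians were 0.06, 0.51, 0.81 and 0.14 in HIBD model libraries 2, 8, 16 and 18, and 0.74, 0.56, 0.41 and -0.15 in acupuncture libraries 5, 22, 35 and 55. Normal library 8 was the lowest of all 12 for 290 of the 770 loci, and HIBD model library 16 was the highest for 293. Among the 4 normal libraries, number 10 was the highest for 492 loci (63.9%), against 20.9% of the Ensembl genes with several rows. Assembled loci with 1 transcript also set it apart, with median deviations of -1.77, 0.07, -1.42 and -1.42 in normal libraries 8, 10, 11 and 13.

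**Figure D1:**
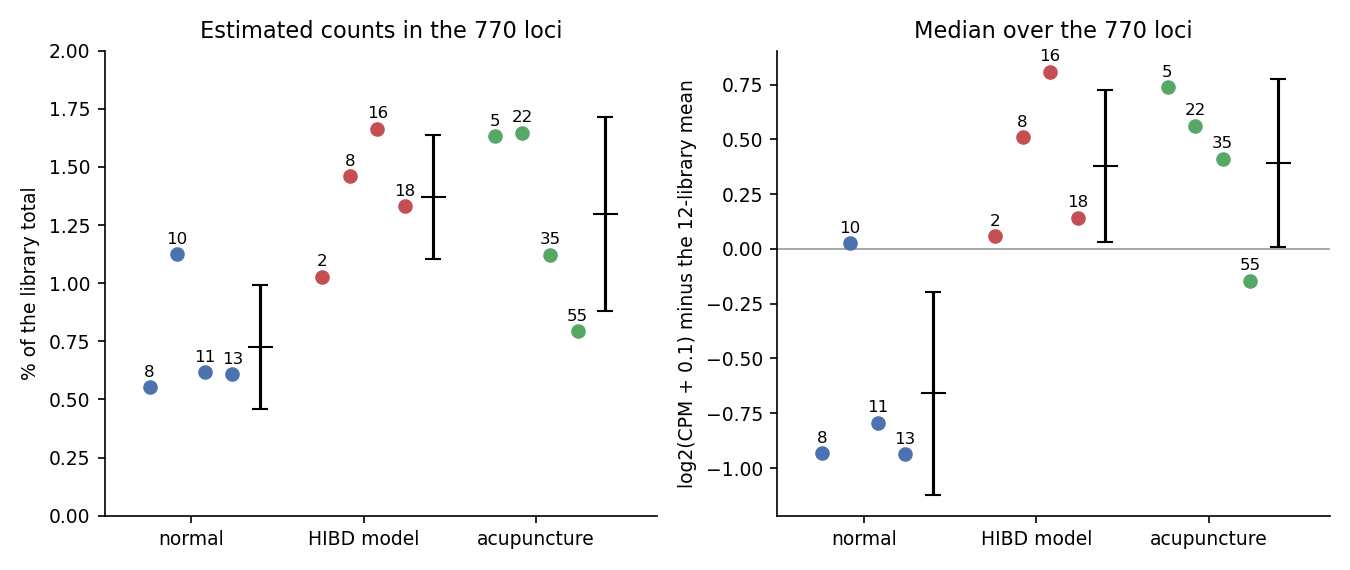
Left, percentage of each library's estimated counts found in the 770 assembled loci. Right, median over the loci of log2(CPM + 0.1) minus the locus's 12-library mean. Points are libraries with their number, and the black mark with bars is the group mean ± SD (n = 4). Normal library 10 lies at 1.13% and 0.03, apart from the other 3 normal libraries.

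The loci were not uniform in this. Pearson's r of each locus with the library medians just given, over 12 libraries, had a median of 0.728, and it is a description because those medians come from the same loci and libraries. It was at least 0.7 for 400 loci (51.9%) and at most -0.3 for 66 (8.57%). For Ensembl genes with several rows the median r was -0.267, and 6.95% reached 0.7. It was not computed for assembled loci with 1 transcript. Over the 8 HIBD model and acupuncture libraries alone, the median r of the 770 loci was 0.559. The 53 pairs of loci with consecutive assembler numbers among the 770 had a median r of 0.904 over the 12 libraries, against 0.311 for all pairs. The files do not say whether consecutive loci are neighbours on the genome or parts of 1 transcription unit, so these pairs may not be separate measurements.

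**Figure D2:**
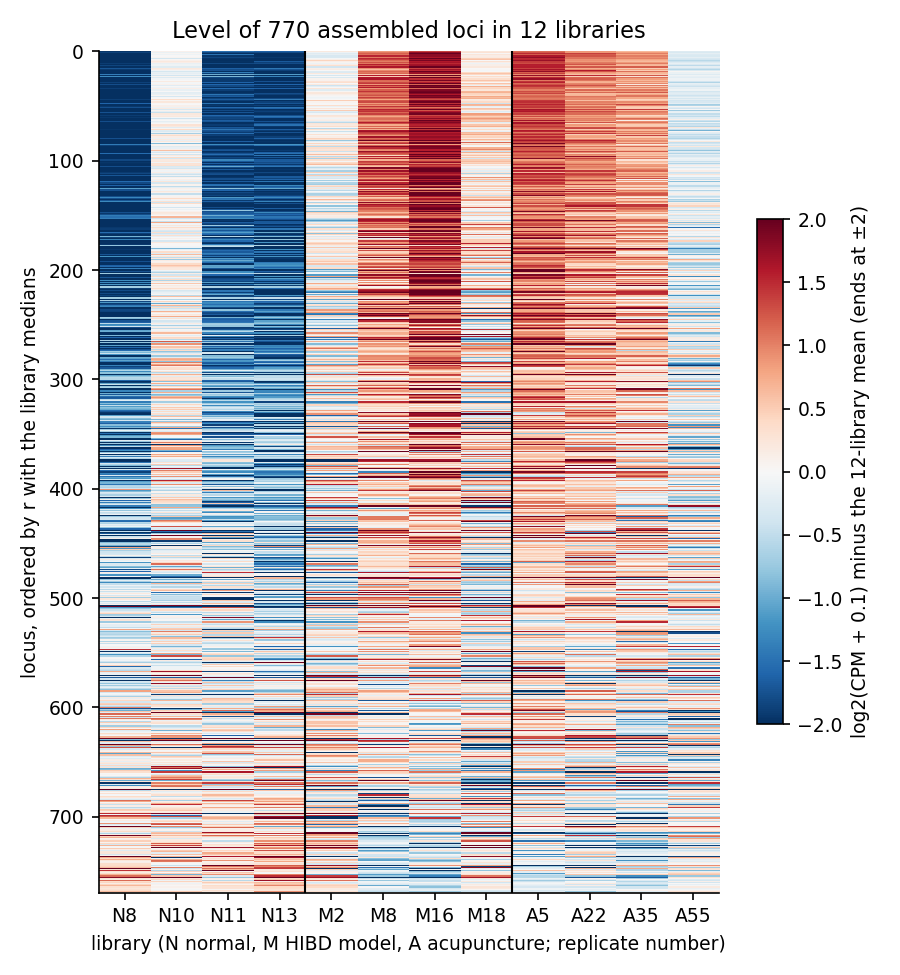
Each row is 1 of the 770 loci and each column a library, grouped by the black lines. Colour is log2(CPM + 0.1) minus the locus's 12-library mean, red above and blue below, ending at ±2. Rows are ordered by r with the library medians: the upper rows are low in normal libraries 8, 11 and 13 and near their mean in normal library 10, and the lowest rows show other patterns.

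Spread within groups was wide. The SD was a median of 60%, 46.0% and 38.2% of the mean in normal, in HIBD model and in acupuncture libraries, against 12.8%, 18.8% and 13.1% for Ensembl genes with several rows. Assembled loci with 1 transcript had 87.3%, 45.0% and 40%. An SD under 20% of the mean in every group was seen in 31 loci (4.03%), and in 43.6% of those Ensembl genes.

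The comparison of HIBD model with normal asks which loci differ after the damage. The median log2 fold change of the 770 loci was 0.97 (quartiles 0.15 and 2.11), and 80.6% of them were higher. Over all 27885 genes and loci tested the median was 0.01, and over assembled loci with 1 transcript it was 1.73. By edgeR's quasi-likelihood test with Benjamini-Hochberg adjustment over the whole table, 1 locus passed at an adjusted p below 0.05 as higher, against 0.0574% of all tested, and 0 as lower, against 0.0394%. At an unadjusted p below 0.05, 362 were higher (47%, against 13.6% of all tested) and 21 were lower (2.73%, against 8.83%). All 4 HIBD model libraries lay above all 4 normal ones in 154 loci (20%, against 7.24%) and below them in 7 (0.909%, against 3.07%). Without normal library 10, 314 of the loci passed the adjusted test, against 10.6% of all genes then tested, and the median log2 fold change was 1.23. That library was singled out by the same loci, so this count is no independent evidence. With DESeq2 in place of edgeR, 325 passed, against 13.5% of all tested.

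The comparison of acupuncture with normal uses the same 4 normal libraries, so its values are not independent of those just given. The median log2 fold change was 0.96 (quartiles 0.20 and 2.01), with 82.3% of the loci higher. Over all genes tested the median was 0.02, and over assembled loci with 1 transcript it was 1.6. By edgeR's adjusted p, 1 locus passed as higher, against 0.0502% of all tested, and 0 as lower, against 0.0323%. At an unadjusted p below 0.05, 364 were higher (47.3%, against 14.1%) and 13 were lower (1.69%, against 10.4%). All 4 acupuncture libraries lay above all normal ones in 149 loci (19.4%, against 7.3%) and below in 14 (1.82%, against 12.3%). Without normal library 10, 305 passed, against 10.8% of all genes then tested. The same loci singled out that library, so the count of 305 is no independent evidence. With DESeq2 307 passed, against 15.6% of all genes to which it gave an adjusted p.

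Between acupuncture and HIBD model, which asks what differs with the treatment, the median log2 fold change was -0.03, and 45.3% of the loci were higher with acupuncture. By edgeR's adjusted p, 0 loci passed as higher and 0 as lower, against 0% of all tested in either direction, and the lowest adjusted p in the table was 0.907. At an unadjusted p below 0.05, 18 loci were higher (2.34%, against 1.94%) and 15 were lower (1.95%, against 3.37%). DESeq2 called 6 of the 770 loci, against 0.679% of all genes to which it gave an adjusted p.

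**Figure D3:**
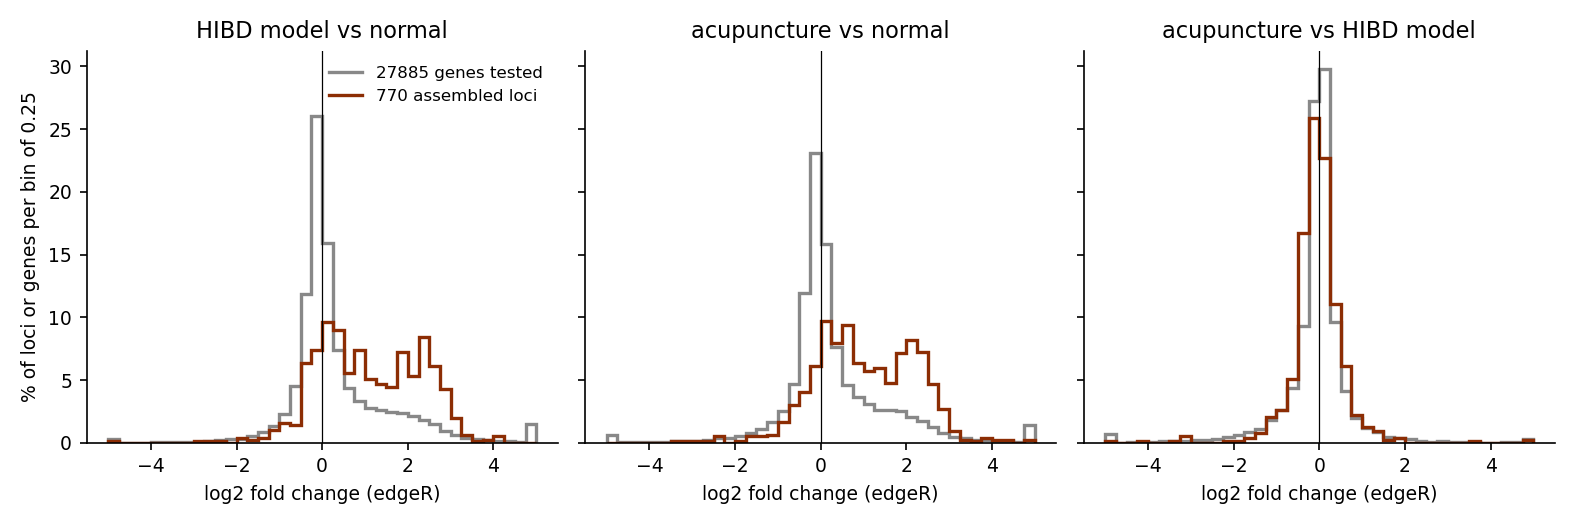
Distribution of edgeR log2 fold changes (x axis) as the percentage per bin of 0.25 (y axis) for the 770 loci (brown) and all 27885 genes and loci tested (grey), in the 3 comparisons. The values beyond ±5 are in the end bins. In both comparisons with normal the brown curve has a broad shoulder above 0, with medians of 0.97 and 0.96, while it lies around 0 between acupuncture and HIBD model.

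The median was above 0 in each class of transcript number, level and length. Against normal, the median log2 fold change in HIBD model was 1.28 in the 246 loci with 2 transcripts, 0.86 in the 304 with 3 to 5 and 0.83 in the 220 with 6 or more. It was 0.87 in the 361 loci of 1 to 3 CPM, 1.1 in the 253 of 3 to 10 CPM, and 1.03 in the 156 of 10 CPM or more. By relative length it was 0.61 in the 269 loci under 1, 1.18 in the 378 of 1 to 3, and 1.06 in the 123 of 3 or more. Ensembl genes of those 3 length classes had medians of -0.12, -0.05 and -0.02. Assembled loci with 1 transcript had 1.73, 1.82 and 1.48, so the shift was not particular to loci with several transcripts. Assembled transcripts that lie in Ensembl genes together took 16.3% ± 1.64 (SD, n = 4) of the estimated counts in normal libraries. They took 16.1% ± 2.03 in HIBD model and 16.6% ± 1.31 in acupuncture libraries. These are summed percentages, and a median fold change was not computed for these transcripts, so they cannot be set against the medians above.

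XLOC_049670, with 5 transcripts, was the 1 locus that passed the edgeR test, in both comparisons with normal. Its level was 0.993, 2.44, 1.31 and 1.28 CPM in normal libraries 8, 10, 11 and 13. It was 4.26, 4.68, 5.24 and 6.36 CPM in HIBD model libraries 2, 8, 16 and 18, and 5.40, 7.78, 6.36 and 5.17 CPM in acupuncture libraries 5, 22, 35 and 55. All 8 of these libraries lay above all 4 normal ones, and the HIBD model and acupuncture ranges overlapped. From normal, HIBD model differed by 1.77 ± 0.27 on the log2 scale (SE; adjusted p by edgeR = 0.0485) and acupuncture by 2.10 ± 0.27 (adjusted p by edgeR = 0.0302). These calls lay close to the threshold. Over 18 alternatives the edgeR, DESeq2 or limma adjusted p ran from 2.9e-08 to 0.158 in the first comparison, with 4 calls. In the second comparison it ran from 1.32e-11 to 0.102, with 10 calls. Both counts include the choice of loci at a threshold of 2 CPM, which keeps the main fit and so only repeats its call. Leaving out 1 library ended the first call in all cases other than normal library 10 and HIBD model library 2, and the second in all other than normal library 10 and acupuncture library 55.

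XLOC_111615, with 9 transcripts, came next among the higher loci in HIBD model. Normal libraries 8, 10, 11 and 13 had 31.3, 46.0, 29.3 and 38.4 CPM, and HIBD model libraries 2, 8, 16 and 18 had 67.6, 67.2, 68.0 and 86.2 CPM. The groups did not overlap, and the log2 fold change was 0.99 ± 0.16 (SE), short of the threshold (edgeR adjusted p = 0.0617). Acupuncture libraries 5, 22, 35 and 55 had 68.3, 69.4, 69.7 and 46.3 CPM, of which only number 55 was near normal library 10.

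Loci that were lower than normal were few, and 0 of them passed the adjusted test. XLOC_123557, with 3 transcripts, had 10.3, 10.9, 6.47 and 14.1 CPM in normal libraries 8, 10, 11 and 13. It had 0.218, 1.82, 2.16 and 3.04 CPM in HIBD model libraries 2, 8, 16 and 18. All 4 lay below normal, and the log2 fold change was -2.50 ± 0.71 (SE), with an adjusted p of 0.104 by edgeR. In acupuncture libraries 5, 22, 35 and 55 it had 11.6, 9.76, 3.54 and 2.80 CPM, so libraries 5 and 22 lay within the normal range and 35 and 55 below it. XLOC_286850 had 3.09 to 5.03 CPM in normal libraries and 3.32, 1.81, 1.57 and 1.92 CPM in HIBD model libraries 2, 8, 16 and 18, where library 2 overlapped with normal (log2 fold change -0.93 ± 0.26 SE, edgeR adjusted p = 0.104). XLOC_294264 had 19.0 to 27.8 CPM in normal, 14.5 to 23.9 in HIBD model and 12.7 to 16.4 in acupuncture libraries, and for acupuncture against normal the log2 fold change was -0.55 ± 0.15 (SE, edgeR adjusted p = 0.104).

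Some loci stood apart in acupuncture libraries. XLOC_016577, with 5 transcripts, had 1.55, 2.65, 1.09 and 3.05 CPM in normal libraries 8, 10, 11 and 13 and 3.67, 0.587, 0.586 and 4.15 CPM in HIBD model libraries 2, 8, 16 and 18. It had 0.488, 0.113, 0.194 and 0.179 CPM in acupuncture libraries 5, 22, 35 and 55, below every other library. The log2 fold changes were -3.04 ± 0.72 (SE) against normal and -3.07 ± 0.72 against HIBD model, with edgeR adjusted p-values of 0.101 and 0.907.

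XLOC_022145, one of the loci just inside the level threshold, had 0.357 to 0.504 CPM in normal libraries. It had 0.828, 0.626, 0.412 and 1.06 CPM in HIBD model libraries 2, 8, 16 and 18 and 1.29, 2.10, 3.12 and 1.08 CPM in acupuncture libraries 5, 22, 35 and 55. The acupuncture libraries lay above the other 8, narrowly so for number 55, and without them the locus would not have reached 1 CPM. Its log2 fold changes, 2.27 against normal and 1.48 against HIBD model, are therefore a description with no test.

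XLOC_238825 was high in HIBD model libraries 2, 8 and 16, with 2.19, 6.64 and 5.95 CPM, while number 18 had 0.517 CPM. The other 8 libraries had 0.111 to 0.789 CPM, so library 18 fell within their range. The locus reached 1 CPM only through the HIBD model group, and its log2 fold change of -3.10 in acupuncture against HIBD model is a description with no test. XLOC_300796 had 1.35 to 1.87 CPM in HIBD model and 1.55 to 3.01 in acupuncture libraries, which overlapped (log2 fold change 0.70 ± 0.20 SE, edgeR adjusted p = 0.907).

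The most abundant locus, XLOC_011099, with 33 transcripts and a mean of 2899 CPM, stood far above the next, at 546.7 CPM. Normal libraries 8, 10, 11 and 13 had 773, 4116, 913 and 1253 CPM. HIBD model libraries 2, 8, 16 and 18 had 3486, 3545, 2977 and 5695 CPM, and acupuncture libraries 5, 22, 35 and 55 had 4140, 5213, 1581 and 1099 CPM. Normal library 10 lay among the high libraries and acupuncture library 55 among the low ones, and by edgeR the locus did not pass (log2 fold change 1.15 ± 0.60 SE, adjusted p = 0.297, in HIBD model, and 0.83 ± 0.60, adjusted p = 0.425, in acupuncture). XLOC_022498, with 61 transcripts, had 40.3, 217, 62.1 and 58.9 CPM in normal libraries 8, 10, 11 and 13, 190 to 792 in HIBD model and 162 to 587 in acupuncture libraries. Only normal library 10 overlapped with the other groups (log2 fold changes 2.33 ± 0.64 SE and 2.05 ± 0.64, edgeR adjusted p = 0.103 and 0.11).

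Other abundant loci varied less. XLOC_107691, second in mean CPM, had 463 to 704 CPM in normal, 340 to 621 in HIBD model and 520 to 686 in acupuncture libraries, with all groups overlapping. XLOC_107212 had 158 to 253 CPM in normal, 268 to 385 in HIBD model and 215 to 368 in acupuncture libraries, without overlap between the first 2 groups (log2 fold change 0.77 ± 0.20 SE, edgeR adjusted p = 0.102). XLOC_262788 had 178 to 228, 200 to 284 and 200 to 346 CPM in the 3 groups, and XLOC_102347 had 180 to 245, 103 to 269 and 171 to 233 CPM. Of the 6 loci of highest mean CPM, XLOC_107212 alone had all HIBD model libraries above all normal ones.

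The loci with most transcripts had wide ranges inside the HIBD model group. XLOC_065102, with 69 transcripts, had 13.9, 79.2, 22.8 and 9.66 CPM in normal libraries 8, 10, 11 and 13, and 32.0, 325, 417 and 35.0 CPM in HIBD model libraries 2, 8, 16 and 18. It had 113 to 347 CPM in acupuncture libraries. XLOC_056453, with 68 transcripts, had 0.468 to 9.06 CPM in normal libraries, 4.06, 74.2, 40.5 and 9.86 CPM in HIBD model libraries 2, 8, 16 and 18, and 22.6 to 72.2 CPM in acupuncture libraries. In both loci HIBD model libraries 8 and 16 were high and 2 and 18 were near or within the normal range, while the acupuncture libraries lay above all normal ones. Their log2 fold changes from normal were 2.78 ± 0.98 and 3.19 ± 1.04 (SE) in HIBD model and 2.93 ± 0.99 and 3.83 ± 1.07 in acupuncture, with edgeR adjusted p-values of 0.104 to 0.141.

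**Figure D4:**
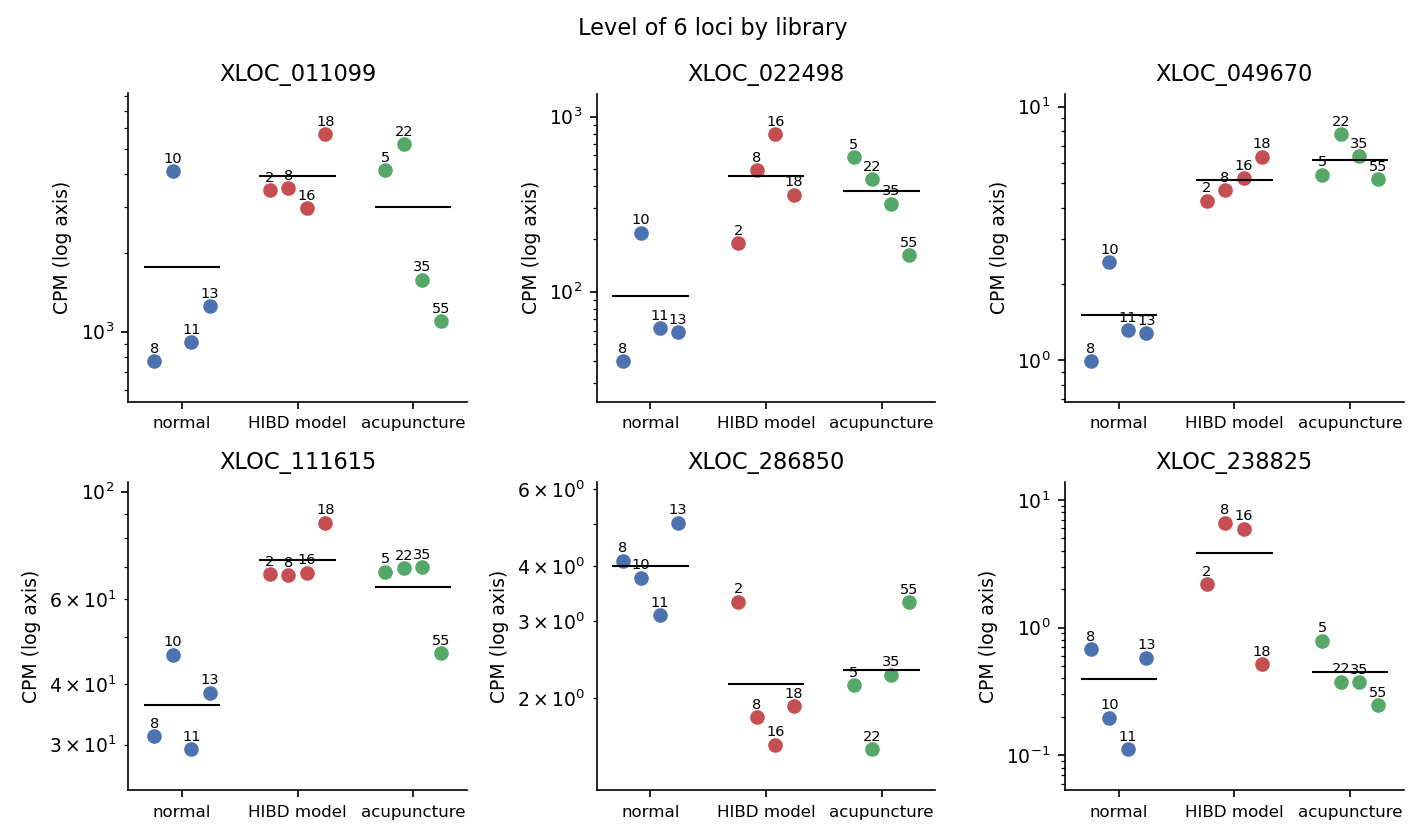
Level in CPM (log axis) of 6 loci in each library, coloured by group and marked with the library number, with a line at the group mean. XLOC_049670 and XLOC_111615 show no overlap between the normal and HIBD model groups. Normal library 10 is above the other 3 normal libraries in XLOC_011099, XLOC_022498, XLOC_049670 and XLOC_111615.

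Transcript shares are the percentage of a locus's estimated counts given to each of its transcripts. The rule that chose the loci did not use them, but whether they vary with the level of a locus was not tested. The leading transcript of a locus held a median of 71.0% of it over all libraries, against 83.9% in Ensembl genes with several rows. On FPKM, which scales each transcript by length, the median was 64.2%, and in 164 loci (21.3%) another transcript led. The same transcript led in all 12 libraries in 144 loci (18.7%), against 62.4% of Ensembl genes with several rows. With equal numbers of transcripts the gap remained: 33.7% of loci with 2 transcripts against 82.8% of such Ensembl genes, and 20.1% against 63.7% with 3. Level was not matched here or in the comparisons of shares with Ensembl genes below. The loci had a lower median FPKM than those genes (1.53 against 6.75), and what part this has in the gap was not tested.

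Shares differed almost as much between libraries of 1 group as between groups. The part of a locus that would have to be reassigned to turn the shares of 1 library into those of another had a median of 30.5%, 29.9% and 30.1% within normal, within HIBD model and within acupuncture. Between groups it was 34.9% for normal and HIBD model, 34.4% for normal and acupuncture, and 31.2% for HIBD model and acupuncture. For Ensembl genes with several rows it was 5.09% to 5.91% within groups and 6.51% to 7.28% between them. Transcript rows that reached 10 CPM in 1 library were listed at 0 in another of the same group in 28.9% of cases, against 9.87% for those Ensembl genes.

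In many loci the share of a transcript had a wide gap between libraries. A gap of at least 40 percentage points between neighbouring libraries, ordered by share, was found for 410 transcripts in 247 loci (32.1%, against 12.5% of Ensembl genes with several rows). It set 1 library apart from the other 11 in 204 of these transcripts. In 79 transcripts of 53 loci it split the libraries with at least 4 on each side. In 0 of the 410 did the split fall between whole groups.

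The following loci were chosen after their values were seen, as examples of such splits with a pair of main transcripts. In XLOC_255786, TCONS_00333531 held 100%, 100%, 12% and 12.1% of the locus in normal libraries 8, 10, 11 and 13, and 100%, 92.9%, 11.4% and 100% in HIBD model libraries 2, 8, 16 and 18. It held 100%, 10.6%, 100% and 3.57% in acupuncture libraries 5, 22, 35 and 55, with nearly all of the rest in TCONS_00333530. The level of the locus was 93.1 to 157 CPM in 11 libraries and 24.5 CPM in HIBD model library 8, so the split cut across the groups and did not follow the level.

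In XLOC_139146, TCONS_00183818 held 99.9% to 100% in normal libraries, 100%, 0%, 100% and 0% in HIBD model libraries 2, 8, 16 and 18, and 0%, 100%, 100% and 0% in acupuncture libraries 5, 22, 35 and 55. HIBD model library 18 and acupuncture library 55 had 0.0211 and 0.0144 CPM for this locus, too little for a share to carry weight, against 0.959 to 1.56 CPM in the other 10. In XLOC_032215, TCONS_00044501 held 100% in normal library 8 and acupuncture library 35, 97.6% and 99.4% in HIBD model libraries 8 and 18, and 0% in the other 8 libraries. In each of these loci both main transcripts led in libraries of more than 1 group.

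The test of isoform usage asks whether the relative use of a locus's transcripts differs between groups, apart from its level. Its p pools the spread over the rows of a locus, so rows that share reads enter as if they were separate measurements. It covered 717 of the 770 loci, those with at least 2 transcript rows past the filter on low values. By edgeR's diffSpliceDGE with Benjamini-Hochberg adjustment over the whole table, 25 loci passed for HIBD model against normal (3.49%, against 4.33% of all 10509 genes tested). For acupuncture against normal 25 passed (3.49%, against 4.44%), and for acupuncture against HIBD model 6 passed (0.837%, against 0.79%). At an unadjusted p below 0.05 the counts were 104 (14.5%, against 16.1%), 115 (16%, against 17%) and 53 (7.39%, against 7.69%). These shares were near the background in this fit. With only transcript rows above 0 in all 12 libraries, chosen after seeing the data, 12 and 17 of 355 loci passed in the comparisons with normal, against 10.9% and 10.7% of all genes then tested. The calls fell on 38 loci in all. Limma-voom also called 3 of the 25, 4 of the 25 and 0 of the 6. In every fit that left out 1 library, 4, 6 and 1 of them were called. Without normal library 10, 62 loci passed for HIBD model against normal and 64 for acupuncture against normal, against 9.27% and 8.99% of all genes then tested. That library was singled out by the level of these loci, so these counts are no independent evidence either.

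XLOC_060268, with 7 transcripts, had the lowest p of the loci for HIBD model against normal (edgeR adjusted p = 2.52e-05; 0.000308 for acupuncture against normal). TCONS_00083943 held 0.759%, 0.684%, 0.314% and 0.306% of it in normal libraries 8, 10, 11 and 13. It held 87.2%, 1.63%, 83.3% and 85.3% in HIBD model libraries 2, 8, 16 and 18, and 83.6%, 83.2%, 1.22% and 1.39% in acupuncture libraries 5, 22, 35 and 55. The transcript was thus nearly absent from all 4 normal libraries, HIBD model library 8 and acupuncture libraries 35 and 55, and dominant in the other 5. TCONS_00083944, of nearly the same relative length (3.60 against 3.61), held 49.2% to 65.4% in the 7 libraries where the first was low and 5.41% to 9.69% in the 5 where it was high. The level of the locus followed the same libraries, at 52.8 to 71.7 CPM in those 5 and 13.4 to 25.3 CPM in the other 7. The locus was called in 14 of 15 alternatives in each comparison with normal, and limma-voom was the exception (adjusted p = 0.692 and 0.863). The 14 include the threshold of 2 CPM, which only repeats the main call.

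XLOC_090214, with 8 transcripts, had a transcript, TCONS_00121975, that was listed at 0 in every normal library and above 0 in all others. It held 8.28%, 23.0%, 25% and 8.97% in HIBD model libraries 2, 8, 16 and 18, and 36.3%, 13.3%, 33.3% and 10.2% in acupuncture libraries 5, 22, 35 and 55. The edgeR adjusted p for isoform usage was 0.00251 in HIBD model and 0.00129 in acupuncture, and 0.88 and 0.747 by limma-voom. Both calls held in 8 of 8 fits that left out a library and with edgeR's Simes combination (adjusted p = 0.00498 and 0.00278). Both were lost with only transcript rows above 0 in all libraries (edgeR adjusted p = 0.923 and 0.932). The level of the locus was 3.30, 22.3, 6.06 and 3.97 CPM in normal libraries 8, 10, 11 and 13, 24.3 to 72.2 in HIBD model and 21.6 to 77.1 in acupuncture libraries. In normal library 10 the transcript was at 0 although the locus was as high there as in acupuncture library 55.

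XLOC_080538, with 27 transcripts, had the lowest p for acupuncture against HIBD model (edgeR adjusted p = 2.29e-06) and against normal (1.08e-05). TCONS_00109873 held 41.6% to 56.8% of the locus in all 4 acupuncture libraries. It held 64.2%, 9.10%, 3.31% and 4.65% in normal libraries 8, 10, 11 and 13 and 0%, 1.95%, 3.62% and 43.3% in HIBD model libraries 2, 8, 16 and 18. Normal library 8 and HIBD model library 18 thus looked like the acupuncture libraries, while the level of the locus, 83.7 to 158 CPM, varied little. Fitted on only the groups compared, neither call remained (edgeR adjusted p = 1 and 0.687). XLOC_134725, with 24 transcripts, was called for acupuncture against HIBD model (edgeR adjusted p = 0.0113) in 4 of 15 alternatives only. The 4 include the threshold of 2 CPM, which keeps the main fit and so only repeats its call. Its leading transcript, TCONS_00178235, held 54.5%, 0%, 41.4% and 36.3% in HIBD model libraries 2, 8, 16 and 18 and 27.4%, 31.9%, 0.611% and 44.4% in acupuncture libraries 5, 22, 35 and 55, with no order by group.

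**Figure D5:**
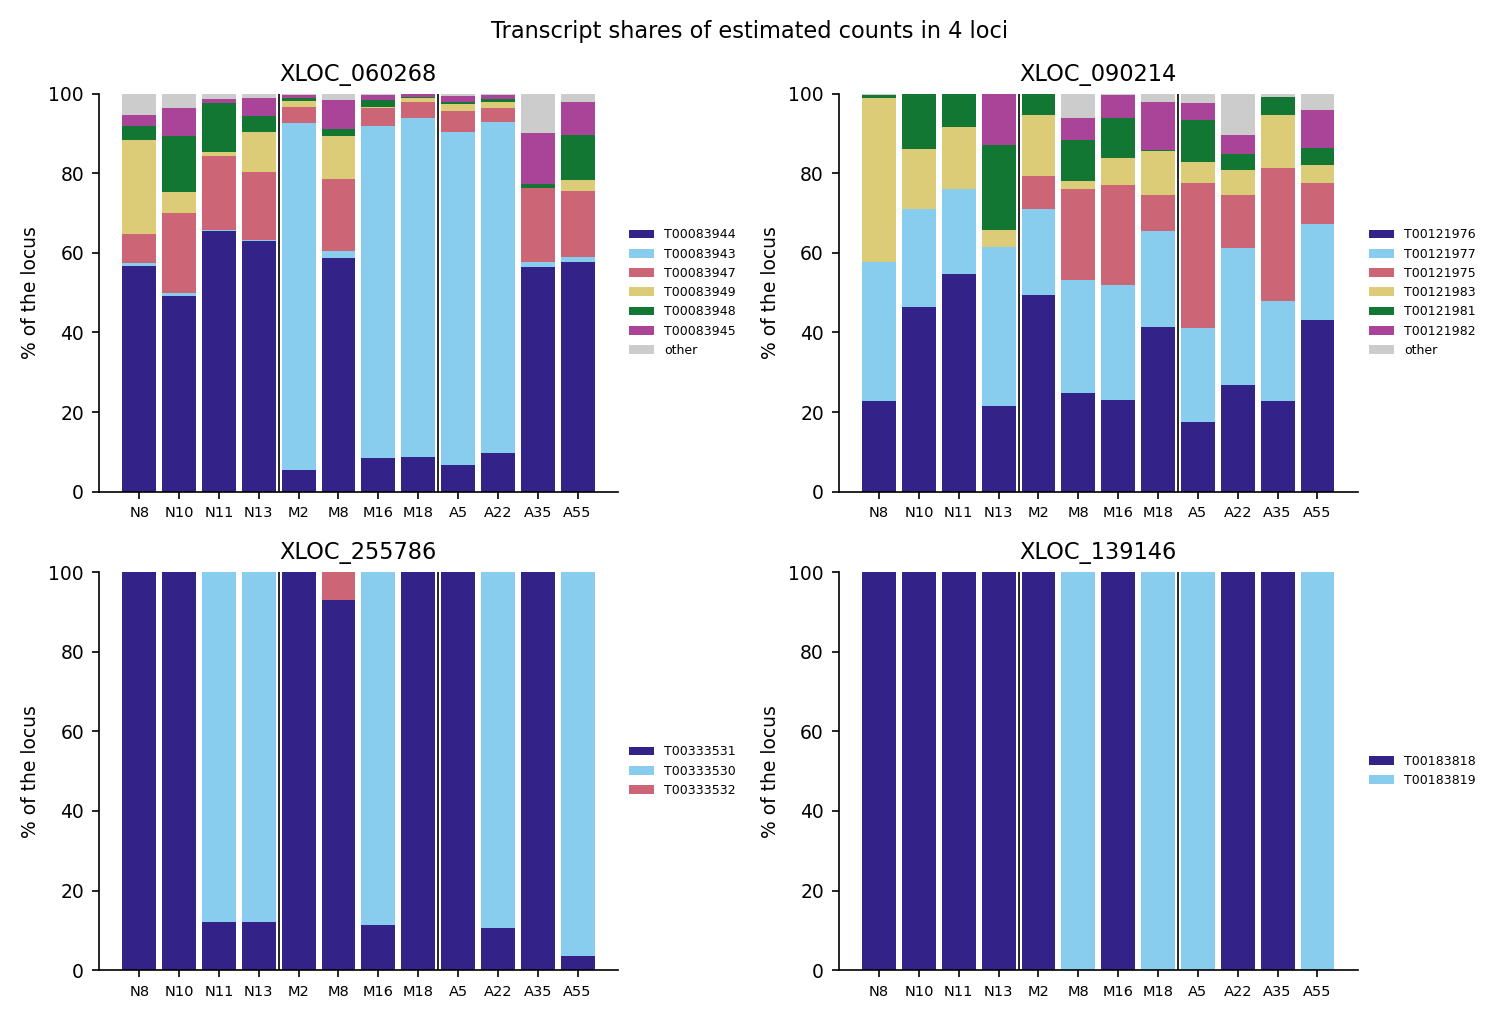
Stacked percentages of each locus's estimated counts by transcript (legend, T for TCONS) in 12 libraries (N normal, M HIBD model, A acupuncture), for 4 loci, with black lines between groups. In XLOC_060268 TCONS_00083943 dominates in 5 libraries of the HIBD model and acupuncture groups. In XLOC_090214 TCONS_00121975 appears only outside the normal group, and in XLOC_255786 and XLOC_139146 the states cut across groups. In XLOC_139146 the bars of HIBD model library 18 and acupuncture library 55 rest on 0.0211 and 0.0144 CPM, too little for a share to carry weight.

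A pair of loci with 2 transcripts that the test called were also chosen after their values were seen. In XLOC_183226, TCONS_00240181 held 0%, 35.7%, 0% and 0% in normal libraries 8, 10, 11 and 13, 100% in every HIBD model library, and 13.3%, 47.2%, 100% and 100% in acupuncture libraries 5, 22, 35 and 55 (edgeR adjusted p = 0.0448 for HIBD model against normal). That call was lost in the fit of 2 groups (edgeR adjusted p = 0.0504) and held in 1 of 8 fits that left out a library. Limma-voom made the call as well (adjusted p = 0.00476), while edgeR's Simes combination did not (adjusted p = 0.2). The locus had only 0.265, 1.74, 0.417 and 0.342 CPM in the normal libraries and 1.66 to 3.70 CPM in HIBD model libraries. In XLOC_071821, TCONS_00098568 was listed at 0 in all 4 normal libraries and held 47.7%, 43.8%, 17.0% and 0% in HIBD model libraries 2, 8, 16 and 18 and 15.4% to 24.1% in acupuncture libraries (edgeR adjusted p = 0.00951 and 0.0132 against normal; limma-voom adjusted p = 0.69 and 0.553). Both calls of XLOC_071821 held in 8 of 8 fits that left out a library and with edgeR's Simes combination (adjusted p = 0.0379 and 0.0378). Its level was 0.885, 5.36, 1.29 and 1.25 CPM in normal, 4.32 to 29.9 in HIBD model and 5.10 to 17.7 in acupuncture libraries. In both loci the normal libraries other than number 10 were the lowest of the 12. In XLOC_071821 the transcript was at 0 in normal library 10 and HIBD model library 18 as well, at levels of 5.36 and 4.32 CPM.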

How the data were processed

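RNA from 12 libraries was sequenced after Trizol extraction and NEBNext library preparation, per the labels' protocols. HTSeq 0.6.0 and Rnor_6.0 are named without a role, per the submitters' processing notes. No source used here gives the aligner, the assembler or the strand setting. The deposited table held estimated counts in 78025 transcript rows. The authors call them read counts, but in 12003 rows above 2000 in every library each equalled the deposited FPKM value times a row and a library factor, with a median deviation of 0.00114%, so they were treated as estimated counts. That product also checked that the rows of the table and of the FPKM files, which the authors deposited with gene identifiers, stand in the same order.

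Transcript rows were summed per locus. Members and lists were chosen with earlier results of these data known. Levels were tested with edgeR 4.0.16 (quasi-likelihood, TMM, filterByExpr) under R 4.3.3 on all 12 libraries together, and isoform usage with diffSpliceDGE, each adjusted by Benjamini-Hochberg over the whole table. The test had been planned for read counts and was applied unchanged to these estimated counts. CPM values printed are relative to the column sum, while fold changes use TMM. Standard errors were derived from the F statistic. DESeq2 1.42.0, limma-voom (limma 3.58.1), log2(FPKM + 1) and log2(FPKM + 0.1), other filters, fits of 2 groups, a threshold of 2 CPM and each library left out in turn were alternatives. The scripts were tested on simulated data in which the spread was set equal for every row. That checks the code, and not how the tests behave at the wide spread of these loci.

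Named loci are the 6 of highest mean CPM, the 3 with most transcripts, the 2 higher and 2 lower of lowest p for level and the 2 of lowest p for isoform usage in each comparison, and the 4 nearest the threshold. None of the 43206 identifiers matched the RefSeq table (GRCr8), so cell type marker lists, positions and sequences were not used here.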

Additional observations from a re-analysis of the deposited data

Results flagged for a closer look

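In 81 sets of 4 libraries of 1 group, the highest or lowest library was singled out where its gap to the nearest other exceeded 0.829 of the set's range. Chance alone does so in about 1 set in 20, and the loci and measures checked share libraries, so the 11 found are not independent. Normal library 10 was set apart above the other 3 normal libraries in 6 of them: the percentage of estimated counts in the 770 loci (1.13%, others 0.553% to 0.616%), the median deviation of the loci (0.026 on the log2 scale, others -0.94 to -0.79), and the CPM of XLOC_011099 (4116, others 773 to 1253), XLOC_022498 (217, others 40.3 to 62.1), XLOC_090214 (22.3, others 3.30 to 6.06) and XLOC_134725 (18.4, others 9.10 to 10.1).

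XLOC_111615 was set apart at 86.2 CPM in HIBD model library 18 (others 67.2 to 68.0) and at 46.3 CPM in acupuncture library 55 (others 68.3 to 69.7). The share of TCONS_00109873 in XLOC_080538 was set apart at 64.2% in normal library 8 (others 3.31% to 9.10%) and at 43.3% in HIBD model library 18 (others 0% to 3.62%). The share of TCONS_00083944 in XLOC_060268 was set apart at 58.8% in HIBD model library 8 (others 5.41% to 8.66%).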

How the results depend on the processing

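The median log2 fold changes of the 770 loci kept their size except on log2(FPKM + 1), where they were 0.43 (HIBD model against normal) and 0.46 (acupuncture against normal). With 1 library left out they ran from 0.81 to 1.23, 0.82 to 1.28 and, for acupuncture against HIBD model, -0.17 to 0.21. The percentage of counts in the loci was 0.646 points higher in HIBD model than normal, and 0.228 points for summed FPKM. With 1 library left out the differences ran from 0.548 to 0.779, 0.457 to 0.742 and -0.189 to 0.096 points.

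Calls depended on the method. For HIBD model against normal, 1 locus passed by level, against 325 by DESeq2 and 0 with RLE normalization, limma-voom, no filter, at least 1 CPM in 4 libraries, 2 groups, log2(FPKM + 1), log2(FPKM + 0.1) or a length trend removed. For acupuncture against normal, 1 passed, against 307 by DESeq2, 36 with 2 groups (where 3.07% of all genes tested passed) and 0 on either FPKM scale. Between acupuncture and HIBD model 0 passed, against 6 by DESeq2. With 1 library left out the counts were 0 to 314, 0 to 305 and 0 to 0, the highest both without normal library 10. Over all genes then tested the shares ran from 0.0035% to 10.6%, 0% to 10.8% and 0% to 0.0035%.

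By isoform usage, 25, 25 and 6 loci passed. By limma-voom 9, 9 and 1 of 717 did, against 3.8%, 2.74% and 0.314% of all genes tested. The Simes combination gave 6 and 9 of 717 in the comparisons with normal, against 0.742% and 1.04%. Keeping transcripts of 1 CPM or more in 4 libraries gave 14, 11 and 2 of 352, against 4.89%, 4.41% and 0.459%. Fits of 2 groups gave 10 of 663 and 14 of 665 in the comparisons with normal, against 2.45% and 2.27%. Rows above 0 in all libraries gave 12, 17 and 0 of 355, against 10.9%, 10.7% and 0.528%. With 1 library left out the counts were 8 to 62, 14 to 64 and 2 to 9, of 726 to 731 loci. Over all genes then tested the shares ran from 2.13% to 9.27%, 1.51% to 8.99% and 0.658% to 0.763%. For the comparisons with normal the highest counts and shares were again without normal library 10. The cause was not tested. The removal of the length trend, the rows above 0 and the class without XLOC_011099 were chosen after seeing the data. No paired analysis was possible because the groups share only the number 8. The unit of the values limits precision: the number of reads behind a level or a 0 is unknown.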
